A study of Mus musculus with 9 samples.

Results

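S100a11 and S100a7a, a pair of S100 genes, were followed across untreated and fatty acid loaded AML12 cells, a mouse hepatocyte line. The genes were taken by symbol, 2 of the 10260 gene symbols that the deposited tables listed. They were chosen by their measured levels over these same groups, and which comparison weighed in the choice is not known. So their levels and differences are given here as a description with no test, and no support is drawn from them. RNA was sequenced from 9 libraries in 3 groups of 3. Cells of the Ang(1-7) group received 100 nM Ang(1-7), a heptapeptide of the renin-angiotensin system, 30 min before a 24 h exposure to 0.2 mM PA (taken to be palmitic acid) with 0.4 mM OA (taken to be oleic acid). Cells of the PA/OA group received the same fatty acids alone, and control cells were untreated. All groups were AML12 cells, whose growth medium was DMEM with 10% serum. Effects of the fatty acids and of their carrier or handling cannot be told apart, since carrier-only cells were not part of the groups. Nothing in the labels tells if samples within a group came from separate cultures, so the spread between them may be technical.

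S100 proteins are small EF-hand proteins that change shape on binding calcium and then dock onto partner proteins, mostly as dimers. S100A11, also called calgizzarin, binds annexins and takes part in repair of the plasma membrane. S100a7a encodes a mouse relative of human psoriasin, known from inflamed skin, where IL-17 signalling raises it. Both mouse genes lie on chromosome 3 among 15 genes named S100a. In RefSeq's GRCm38.p6 annotation S100a7a has S100a6 and S100a8 as its nearest protein-coding neighbours, and S100a11 has Tchhl1 and S100a10.

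The promoter windows of both genes, from 250 bases before to 50 after the annotated start, are shown because the 2 genes of 1 chromosome had different orders across the groups. The sequences are RefSeq's, build GRCm38.p6, plus strand, at chr3:93520246-93520545 for S100a11 and at chr3:90654052-90654351 for S100a7a. The 5 motifs were chosen after the sequences had been seen. Capitals mark matches on either strand to the AP-1 motif TGANTCA, the GC box GGGCGG, the TATA box TATAAA, the STAT motif TTCNNNGAA and the C/EBP motif TTNNGNAAT.
S100a11: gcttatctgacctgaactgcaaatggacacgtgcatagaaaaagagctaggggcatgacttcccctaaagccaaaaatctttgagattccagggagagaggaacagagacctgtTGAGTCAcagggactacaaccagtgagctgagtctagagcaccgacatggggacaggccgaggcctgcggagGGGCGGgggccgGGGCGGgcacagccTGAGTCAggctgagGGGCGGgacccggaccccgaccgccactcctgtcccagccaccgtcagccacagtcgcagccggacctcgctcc
S100a7a: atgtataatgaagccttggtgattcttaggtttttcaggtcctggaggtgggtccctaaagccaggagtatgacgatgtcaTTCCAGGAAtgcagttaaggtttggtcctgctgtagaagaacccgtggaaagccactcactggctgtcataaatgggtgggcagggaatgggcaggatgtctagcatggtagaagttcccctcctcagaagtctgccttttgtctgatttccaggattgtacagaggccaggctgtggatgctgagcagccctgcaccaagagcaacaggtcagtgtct
The S100a11 window held the AP-1 motif beginning 136 and 38 bases before the start and the GC box beginning 64, 52 and 24 bases before it. None of these matches overlapped another. The S100a7a window held the STAT motif, beginning 169 bases before the start, and no match to the other 4 motifs. Of 27025 promoter windows, 7.93% held the AP-1 motif and 0.44% held it at least 2 times, 35.9% held the GC box and 8.47% the STAT motif. Of the bases, 61.7% were G or C in the S100a11 window and 50.7% in the S100a7a window, against a median of 52.7% over all windows. A match here is a run of letters and no evidence of binding.

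S100a11 was highest with Ang(1-7), intermediate with fatty acids alone and lowest in untreated cells. It had 4279, 6220 and 7056 counts in Ang(1-7) libraries 1 to 3, 3102, 3237 and 2567 in PA/OA libraries, and 1990, 2620 and 2337 in controls. As CPM, the share of a library's counts on a per-megacount scale after trimmed mean scaling, these were 169.6, 233 and 262 with Ang(1-7), 120.1, 126 and 99.6 with PA/OA, and 73.6, 97.5 and 89.4 in controls. No 2 groups overlapped, but the lowest PA/OA library stood only just above the highest control. Of all genes tested, 11% were likewise fully apart between Ang(1-7) and PA/OA, 23.8% between PA/OA and control and 26.5% between Ang(1-7) and control. The lowest count, 1990, has an exact 95% Poisson interval of 70.4 to 76.9 CPM. Such intervals cover counting error only.

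The means were 222 ± 47.2 CPM with Ang(1-7), 115 ± 13.9 with PA/OA and 86.8 ± 12.2 in controls (SD, n = 3 each). The Ang(1-7) mean was 1.92 times that of PA/OA and 2.55 times that of controls, and the PA/OA mean was 1.33 times that of controls. On the log2 scale the difference was 0.93 ± 0.22 (SE) between Ang(1-7) and PA/OA, with single pairs of libraries from 0.43 to 1.39 apart. It was 0.41 ± 0.16 between PA/OA and control, with pairs from 0.03 to 0.78 apart, and 1.32 ± 0.22 between Ang(1-7) and control, with pairs from 0.79 to 1.82 apart. The step between PA/OA and control was the smallest of the 3, beside a pooled SD of 0.19 between libraries. In bulk RNA, more RNA per cell and more cells that express a gene cannot be told apart.

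S100a7a had another order, with the highest level in untreated cells. It had 289, 359 and 233 counts in Ang(1-7) libraries, 256, 234 and 232 in PA/OA libraries, and 464, 578 and 434 in controls, for the transcripts that all 3 tables listed. The CPM were 11.5, 13.5 and 8.64 with Ang(1-7), 9.91, 9.13 and 9.00 with PA/OA, and 17.2, 21.5 and 16.6 in controls. Each control library lay above every fatty acid loaded one, whereas the Ang(1-7) and PA/OA libraries overlapped. Of all genes tested, 23.8% were fully apart between PA/OA and control and 26.5% between Ang(1-7) and control, in either direction.

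The S100a7a means were 11.2 ± 2.42 CPM with Ang(1-7), 9.35 ± 0.49 with PA/OA and 18.4 ± 2.68 in controls (SD, n = 3 each). The PA/OA mean was 0.507 times that of controls, and the Ang(1-7) mean 0.607 times. The log2 difference was −0.97 ± 0.12 (SE) between PA/OA and control, −0.74 ± 0.21 between Ang(1-7) and control and 0.21 ± 0.21 between Ang(1-7) and PA/OA. For the last, single pairs of libraries ranged from −0.28 to 0.58. The lowest count, 232, has an exact 95% Poisson interval of 7.88 to 10.2 CPM, so counting error is a larger part of the spread in S100a7a than in S100a11. The 2 comparisons with controls share the control libraries.

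**Figure D1:**
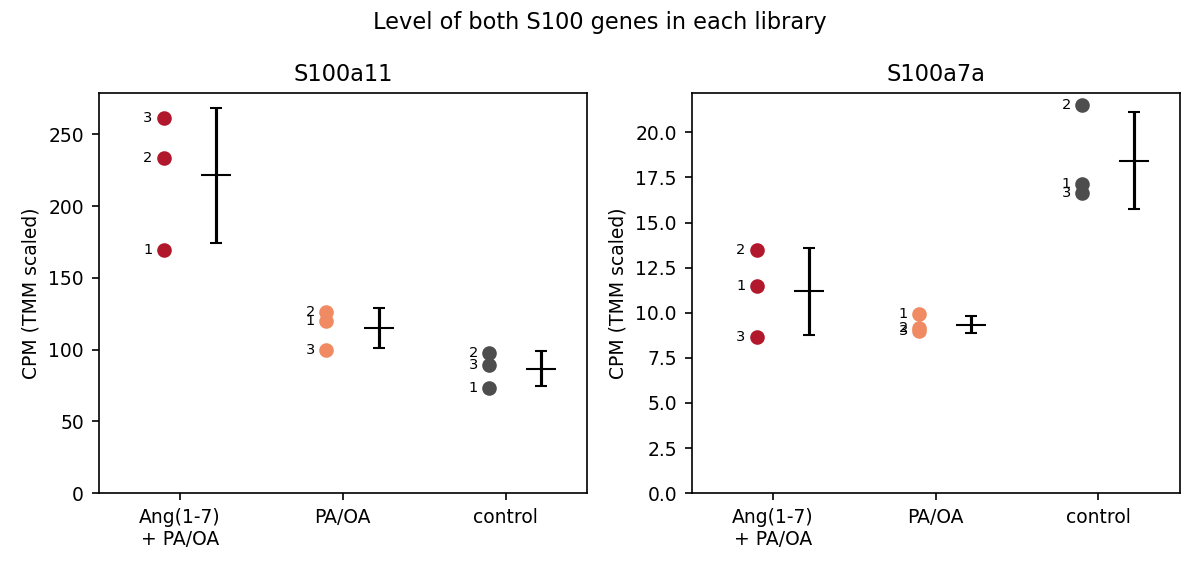
CPM (vertical axes, starting at 0) of S100a11 and S100a7a in each library of the Ang(1-7), PA/OA and control groups. Points are libraries with their replicate number, and the bars beside them are the mean ± SD (n = 3). S100a11 averaged 222 CPM with Ang(1-7) and 86.8 in controls, and S100a7a averaged 11.2 CPM with Ang(1-7) and 18.4 in controls.

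S100a7a was counted through 1 curated and 2 predicted RefSeq transcripts, and S100a11 through 1 curated transcript. The curated S100a7a transcript averaged 8.75 ± 2.25 CPM with Ang(1-7), 7.65 ± 0.20 with PA/OA and 13.8 ± 2.25 in controls. The predicted one that all tables listed averaged 2.43 ± 0.53, 1.69 ± 0.56 and 4.62 ± 0.45 CPM in the same groups. Both therefore had their highest level in controls. The other predicted transcript appeared in the table of the fatty acid groups alone, with 4, 10 and 1 counts in Ang(1-7) libraries and 17, 5 and 6 in PA/OA libraries. How reads shared by these transcripts were assigned is not given in the sources used here.

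**Figure D2:**
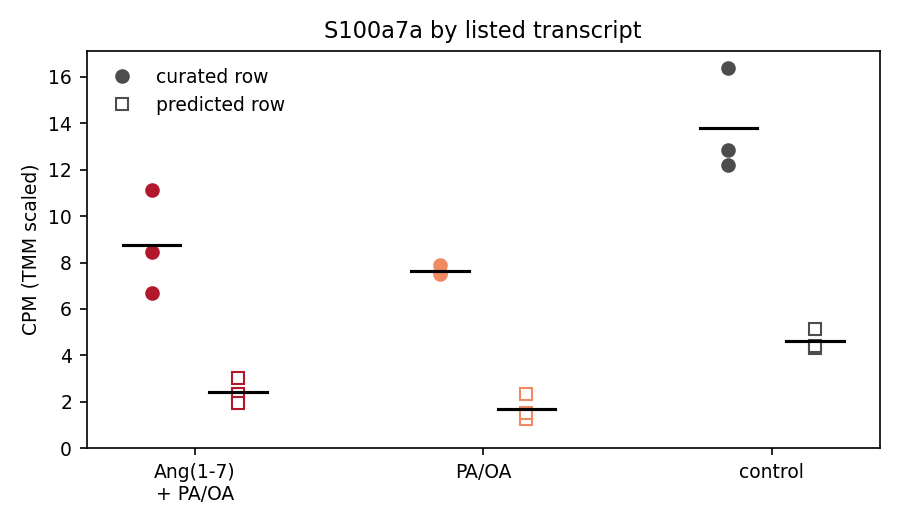
CPM (vertical axis) of the curated (filled circles) and the predicted (open squares) S100a7a transcript in each library of the Ang(1-7), PA/OA and control groups, with group means as lines. Both transcripts were highest in controls, at means of 13.8 and 4.62 CPM.

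The S100a11 transcript has a near copy elsewhere, the processed pseudogene S100a11-ps on chromosome 12 in GENCODE M21. The 2 sequences aligned over 303 of the 511 bases of S100a11, with 93.7% identity. Reads of the pseudogene could in part be counted for S100a11 or lost to both, and this was not tested.

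Against all genes, S100a11 ranked 450 from the top of 9261 by log2 difference between Ang(1-7) and PA/OA, 881 from the top of 6213 between PA/OA and control, and 88 from the top of 6134 between Ang(1-7) and control. S100a7a ranked 31 from the bottom between PA/OA and control and 439 from the bottom between Ang(1-7) and control. Its rank between Ang(1-7) and PA/OA was 2397 from the top. In the authors' deposited table of Ang(1-7) against PA/OA, the S100a11 transcript had a log2 fold change of 0.96.

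**Figure D3:**
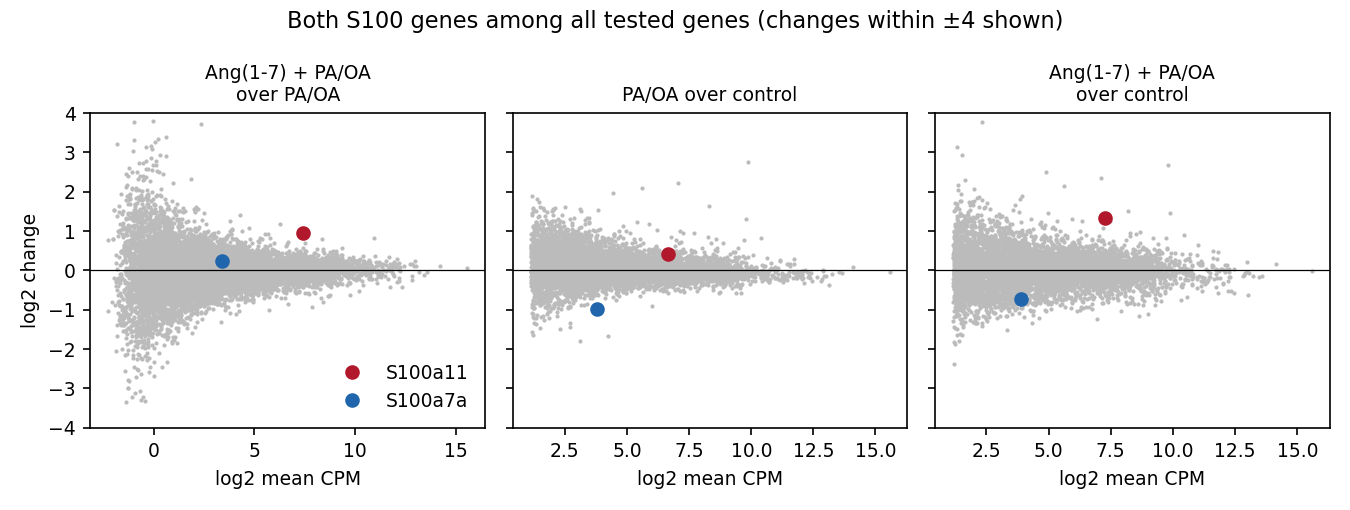
Log2 change (vertical axis) against log2 mean CPM (horizontal axis) of all tested genes (grey) in the 3 comparisons, with S100a11 in red and S100a7a in blue. Changes beyond the axis limits are not drawn. S100a11 ranked 88 from the top of 6134 genes in Ang(1-7) over control, and S100a7a 31 from the bottom of 6213 in PA/OA over control.

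Calls over all genes used the quasi-likelihood test of edgeR, adjusted over each table by Benjamini-Hochberg, at an adjusted p under 0.05. Between Ang(1-7) and PA/OA, 0 of 9261 genes were called, a share of 0%. In that comparison 236 genes had an unadjusted p under 0.05, and DESeq2 called 3 genes. On simulated counts for it, the test recovered 39.5% of genes changed 2-fold and 98.5% of those changed 4-fold, at a dispersion of 0.05. The real libraries varied more, with a biological coefficient of variation of 44.3%, so a count of 0 does not show that genes did not differ. Between PA/OA and control 5.05% of 6213 genes were called (2.82% higher and 2.24% lower). Between Ang(1-7) and control 0.245% of 6134 genes were called, 15 in all and each of them higher. Since S100a11 and S100a7a were chosen by their levels in these groups, no call is given for them. Of all genes tested, the libraries of both groups were fully apart (no overlap) in 11% between Ang(1-7) and PA/OA, in 23.8% between PA/OA and control and in 26.5% between Ang(1-7) and control.

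Libraries 2 and 3 of the Ang(1-7) group held transcripts of nervous tissue, and library 2 stood apart from the rest. Log2 levels in library 2 correlated with the other 8 libraries at 0.917 to 0.937, against at least 0.969 among those 8. These correlations are across genes, and genes are no independent replicates. Of 22 nervous system markers, 13 were listed for the fatty acid groups. Mbp, a myelin gene that is also transcribed outside myelin, had 109 to 138 CPM in all 6 libraries. Mbp, at a like level in all of them, was set aside after its values were seen. The other 12 markers were all above 0 in Ang(1-7) 2 and 3 and summed to 131 and 71.6 CPM there. In Ang(1-7) 1, 4 of the 12 were above 0 and the sum was 2.63 CPM, and in the PA/OA libraries 2 to 4 were above 0, with sums of 1.60 to 3.19. Aldh1l1 and Slc1a2, of the 12 markers, were not raised above the PA/OA libraries. Aldh1l1 had 8, 17 and 23 counts in Ang(1-7) libraries and 22, 35 and 0 in PA/OA libraries. Slc1a2 had 2, 20 and 5 counts in Ang(1-7) libraries and 18, 23 and 6 in PA/OA libraries. The neurofilament gene Nefl had 0, 923 and 477 counts in Ang(1-7) 1 to 3 and 0 in each PA/OA library. S100b, the astrocyte S100 gene, had 0, 344 and 171 counts in Ang(1-7) libraries and 0, 1 and 0 in PA/OA libraries.

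S100a11 was higher in Ang(1-7) 2 and 3 than in Ang(1-7) 1, and highest in library 3, which had the lower of the 2 raised marker sums. Ang(1-7) 1 alone, at 169.6 CPM, lay above the 3 PA/OA libraries, of which the highest had 126 CPM. With Ang(1-7) 1 as the only library of its group, a choice made after these markers were seen, the S100a11 difference was 0.57 against PA/OA and 0.97 against controls on the log2 scale. The S100a7a difference was then 0.26 against PA/OA and −0.68 against controls. How much of the S100a11 level in libraries 2 and 3 came with the nervous tissue transcripts was not tested.

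**Figure D4:**
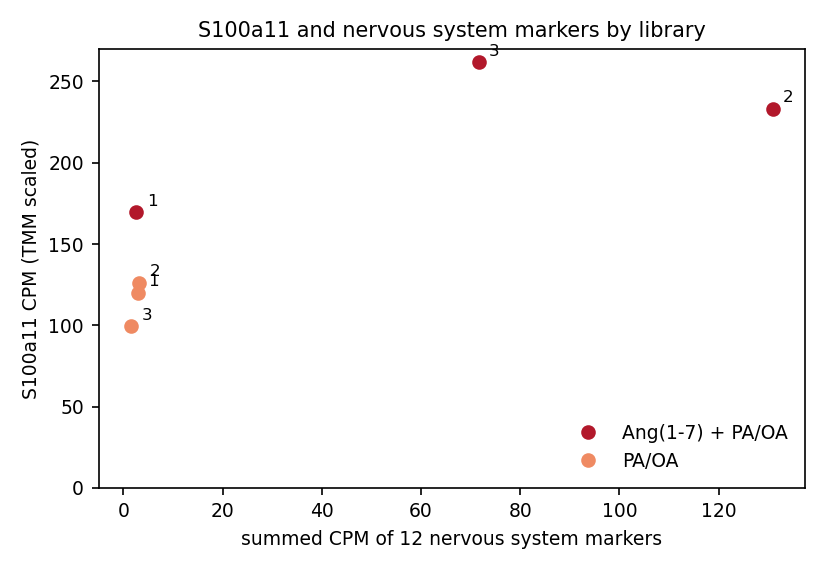
S100a11 CPM (vertical axis) against the summed CPM of 12 nervous system markers without Mbp (horizontal axis) in the 6 fatty acid loaded libraries, numbered by replicate. Ang(1-7) 1 had a marker sum of 2.63 CPM, within the PA/OA range, and 169.6 CPM of S100a11, above the 3 PA/OA libraries.

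Other cell type markers were set beside the pair as well. Of 12 keratinocyte markers 4 were listed, and nearly all of their sum was Sprr1a, a cornified envelope gene. It had 6678, 16025 and 10052 counts in Ang(1-7) libraries, 6916, 5236 and 6107 in PA/OA libraries and 4935, 6642 and 5423 in controls. Of the macrophage and neutrophil markers 4 of 10 were listed and summed to 720 to 812 CPM with Ang(1-7) and 684 to 822 with PA/OA in their shared table, and to 592 to 631 in controls in the table shared with Ang(1-7). Most of that sum was Cd14, which hepatocytes also express. Of 12 hepatocyte markers 5 were listed in both tables with controls, mostly Trf, the transferrin gene, and Apob, of lipoprotein export. They summed to 852 to 1074 CPM with Ang(1-7) and 562 to 651 in controls, and to 809 to 906 with PA/OA beside the same controls. Alb, the albumin gene, had 151, 550 and 122 counts in Ang(1-7) libraries, 208, 151 and 80 in PA/OA libraries and 325, 247 and 172 in controls. Ttr had 78, 353 and 173 counts in Ang(1-7) libraries, 125, 111 and 64 in PA/OA libraries and 422, 233 and 417 in controls. Hnf4a had 118, 104 and 179 counts in Ang(1-7) libraries, 157, 157 and 111 in PA/OA libraries and 246, 251 and 158 in controls. Alb, Ttr and Hnf4a thus did not share the higher sum with PA/OA. Of 8 cholangiocyte markers 4 were listed in those tables, mostly the keratin genes Krt7 and Krt19. They summed to 1141 to 1714 CPM with Ang(1-7) and 1994 to 2138 in controls, and to 1568 to 1711 with PA/OA beside the same controls. Spp1, the osteopontin gene of that list, had the other order, with 354, 417 and 233 counts in Ang(1-7) libraries and 105, 122 and 160 in controls. Blood and fibroblast markers were, like the nervous ones, highest in Ang(1-7) 2 and 3. The 2 of 5 blood markers listed for the fatty acid groups summed to 0, 4.01 and 2.44 CPM in Ang(1-7) 1 to 3 and to at most 0.16 in PA/OA libraries. The 4 of 8 stellate cell and fibroblast markers summed to 8.56, 16.7 and 12.6 CPM in Ang(1-7) 1 to 3 and to 5.98 to 8.91 in PA/OA libraries. Of these, the collagen gene Col3a1 had 0, 71 and 31 counts in Ang(1-7) libraries and 0 in each PA/OA library. The part of any of these cell types in the S100 levels was not tested.

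Compared per length of the curated transcript, S100a6, the calcyclin gene, was far above the other S100 genes with a curated transcript in every table. It had 9065 ± 3463 CPM per kilobase with Ang(1-7), 10691 ± 328 with PA/OA and 13870 ± 1499 in controls (SD, n = 3 each). S100a16, listed through predicted transcripts alone, and S100 genes not listed in every table are not part of this comparison. S100a11 had 434 ± 92.3 CPM per kilobase with Ang(1-7), 226 ± 27.3 with PA/OA and 169.9 ± 23.8 in controls. S100a1 had 206 ± 13.7, 199 ± 9.24 and 206 ± 17.5 in the same groups. S100a11 thus stood below S100a1 in controls, above it with Ang(1-7), and level with it within the spread in PA/OA. The curated S100a7a transcript had 6.84 ± 1.76, 5.98 ± 0.16 and 10.8 ± 1.75 CPM per kilobase. The counts of the predicted S100a7a transcripts are not part of these values, so the level of the whole gene is higher. S100a8 had 29.1 ± 11.1, 28.5 ± 6.87 and 11.7 ± 2.09, and the curated S100a4 transcript 19.9 ± 6.27, 16.4 ± 2.00 and 22.7 ± 2.66. Those 2 stood above the curated S100a7a transcript in each group except for S100a8 in controls, where the values overlapped within the spread.

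The other S100 genes went in both directions. Between PA/OA and control, 1 of 5 other tested S100 genes rose, 1 fell and 3 were not called, with a median log2 change of −0.38 beside 0.01 over all genes. S100a8, whose protein forms calprotectin with S100A9, rose to 13.9 ± 3.34 CPM in PA/OA, against 5.72 ± 1.02 in controls (log2 change 1.28 ± 0.29, adjusted p = 0.0136 in edgeR's test). S100a6 fell to 7808 ± 244 CPM in PA/OA, against 10153 ± 1097 in controls (log2 change −0.38 ± 0.06, adjusted p = 0.000471). The 2 nearest neighbours of S100a7a on the chromosome thus moved in opposite directions. S100a1, S100a4 and S100a16 had log2 changes of −0.05 ± 0.09, −0.43 ± 0.22 and −0.41 ± 0.23 and were not called. The S100a8 call ended without PA/OA 2 (adjusted p = 0.105), PA/OA 3 (0.0576) or control 1 (0.0842) in edgeR's test.

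Between Ang(1-7) and PA/OA, 0 of 9 other tested S100 genes were called (median log2 change −0.21 beside −0.01 over all genes). The count was 0 also in DESeq2, and 0 at an unadjusted p under 0.05. EdgeR called 0 of all 9261 genes there as well. S100a6 had 206009, 98746 and 215951 counts in Ang(1-7) libraries and 195172, 205701 and 202663 in PA/OA libraries. Library 2 of the Ang(1-7) group was the low one, and the log2 change of −0.24 ± 0.25 became 0.06 without it. S100a8 had a log2 change of 0.03 ± 0.32, S100a1 of 0.05 ± 0.12, S100a4 of −0.07 ± 0.28 and S100a16 of −0.21 ± 0.27. S100a3, S100a10, S100a13 and S100g were near 1 CPM in both groups, with log2 changes from −0.85 to −0.12 and standard errors of 0.83 to 1.11. S100a10 and S100a13 were listed through 1 predicted transcript each and no curated one. Their values cover that transcript alone and do not give the level of the whole gene. S100a2, outside the list used here and named after its values were seen, had 14, 23 and 8 counts in Ang(1-7) libraries and 0, 37 and 2 in PA/OA libraries.

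Between Ang(1-7) and control, 0 of 6 other tested S100 genes were called in edgeR's test (median log2 change −0.26 beside 0.02 over all genes), 2 had an unadjusted p under 0.05, and DESeq2 called 1, S100a8. S100a8 had a log2 change of 1.29 ± 0.34 (adjusted p = 0.173) and S100a6 one of −0.62 ± 0.27 (adjusted p = 0.335). Without Ang(1-7) 2 the S100a6 change was −0.33 and called (adjusted p = 0.00244), and with Ang(1-7) 1 alone it was −0.32 (0.0155). S100a1, S100a4 and S100a16 had log2 changes of −0.01 ± 0.12, −0.51 ± 0.29 and −0.60 ± 0.27. S100b, at 4.58 ± 1.89, rested on Ang(1-7) 2 and 3.

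**Figure D5:**
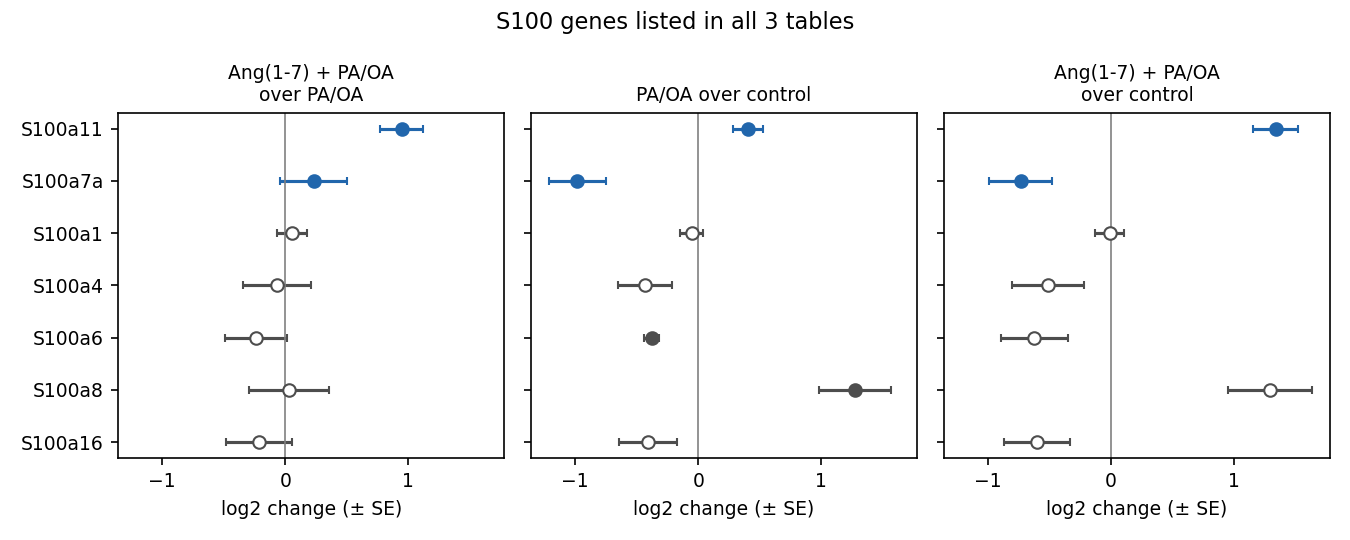
Log2 change ± SE from edgeR (horizontal axes) of the 7 S100 genes listed in all 3 tables, in the 3 comparisons. Blue marks S100a11 and S100a7a, for which no call is given. Their bars too are edgeR's standard errors, not those from the spread of libraries given for them in the text. Grey genes are filled where they passed an adjusted p of 0.05 in edgeR's test, S100a6 and S100a8 in PA/OA over control, and open elsewhere.

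From a list of S100 partner and receptor genes that also held Cdkn1a, 5 were tested in each comparison. Of these, 1 was called, Anxa2 between PA/OA and control. Anxa1, the annexin that S100A11 binds in many cells, averaged 2411 ± 548 CPM with Ang(1-7) and 2115 ± 78.3 with PA/OA (log2 change 0.19 ± 0.15, adjusted p = 0.965 in edgeR's test), with library 2 of the Ang(1-7) group as the high one at 3044 CPM. Anxa2, which pairs with S100A10 and also binds S100A11, fell to 185 ± 12.7 CPM in PA/OA, against 240 ± 35.7 in controls (log2 change −0.37 ± 0.10, adjusted p = 0.0329). That call ended without PA/OA 2 (adjusted p = 0.133), PA/OA 3 (0.0747), control 1 (0.205) or control 2 (0.0954). Of 7 annexin genes tested between PA/OA and control, 1 fell and 0 rose (median −0.08), and of 8 membrane repair genes the same Anxa2 fell and 0 rose. Of all genes 2.24% fell and 2.82% rose in that comparison (median 0.01). DESeq2 called 2 annexin genes and 1 membrane repair gene, and 3 and 2 had an unadjusted p under 0.05. In both other comparisons edgeR called 0% (Ang(1-7) over PA/OA) and 0.245% (Ang(1-7) over control) of all genes. There 0 annexin genes and 0 membrane repair genes were called by edgeR or DESeq2. At an unadjusted p under 0.05 there were 0 of either list between Ang(1-7) and PA/OA, and 2 annexin genes and 1 membrane repair gene between Ang(1-7) and control. For Ncl, the nucleolin gene, the 3 log2 changes were 0.12 ± 0.21 between Ang(1-7) and PA/OA, 0.18 ± 0.16 between PA/OA and control and 0.28 ± 0.17 between Ang(1-7) and control. For Cdkn1a, the cell cycle inhibitor p21, they were 0.03 ± 0.34, −0.42 ± 0.53 and 0.05 ± 0.46, and for Tlr4, a receptor of extracellular S100A8 and S100A9, −0.11 ± 0.16, 0.08 ± 0.12 and −0.04 ± 0.15, none of them called. Ager, which encodes the S100 receptor RAGE, had 10, 0 and 19 counts in Ang(1-7) libraries and 5, 2 and 0 in PA/OA libraries.

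Of 25 other EF-hand genes tested between Ang(1-7) and PA/OA, 0 were called by edgeR or DESeq2 and 0 had an unadjusted p under 0.05 (median log2 change −0.06). Of all 9261 genes edgeR called 0 and DESeq2 3, and 236 had an unadjusted p under 0.05 (median −0.01). The count of 0 is thus no result particular to EF-hand genes.

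Of 10 tested genes of the IL-17 and STAT3 response, a setting in which S100a7a is known to rise in skin, 5 rose in PA/OA against controls, 0 fell and 5 were not called, with a median log2 change of 1.20 beside 0.01 over all genes. The chemokine gene Cxcl5 rose by 2.76 ± 0.07 (adjusted p = 4.93e-17 in edgeR's test), Cxcl1 by 1.65 ± 0.08 (1.33e-11) and the acute phase gene Saa3 by 4.46 ± 0.46 (2.93e-06). The other 2 were Lcn2 and Tnip3. Like the other lists, this list was chosen with earlier results of these data known, so its counts are no independent support. Socs3 and Stat3, a feedback target and the factor of the STAT3 pathway, had log2 changes of −0.14 ± 0.36 and −0.03 ± 0.49 and were not called. Between Ang(1-7) and control 2 of 9 rose, Cxcl5 by 2.69 ± 0.17 (adjusted p = 0.000608) and Tnip3 by 1.06 ± 0.15 (0.0430), and 0 fell. Over all genes edgeR called 0.245% there, and the list's median log2 change was 1.19 beside 0.02. DESeq2 called 5 of the list and gave no adjusted p for 3, and 6 had an unadjusted p under 0.05. Among those that edgeR did not call were Lcn2 at 6.26 ± 0.97 (adjusted p = 0.0514), Cxcl1 at 1.52 ± 0.23 (0.0514) and Saa3 at 4.32 ± 0.69 (0.0559). Socs3 went the other way, at −1.02 ± 0.62 (0.460). The Tnip3 call ended with the replicate block (adjusted p = 0.147) and without any 1 library other than Ang(1-7) 2 (0.0835 to 0.337). Of 13 tested between Ang(1-7) and PA/OA, 0 were called by edgeR or DESeq2, and 0 had an unadjusted p under 0.05. EdgeR called 0 of all 9261 genes there as well. The receptor genes Il17ra and Il17rc, listed for the fatty acid groups alone, had at most 18 counts in any library. Whether IL-17 signalling took place in these cells was not tested.

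The genes most like each of the pair were found among 4809 genes with at least 5 CPM on average, by the root mean square difference of log2 CPM over the 9 libraries after each gene's own mean was subtracted. For S100a11 the closest were Hapln4, which encodes a hyaluronan link protein, at 0.25, and Zrsr1, a relative of the splicing factor U2AF, at 0.27. Xk and Agap1 were at 0.29 and 0.30, against a median of 0.63 over all genes ranked. Hapln4 averaged 21.4 ± 4.16 CPM with Ang(1-7), 12.4 ± 1.93 with PA/OA and 11.3 ± 1.82 in controls, and Zrsr1 15.4 ± 3.31, 9.79 ± 1.47 and 8.97 ± 1.43. In both genes the PA/OA and control means lay within 1 SD of each other. For S100a7a the closest was Ranbp3l at 0.23, with 51.0 ± 0.96 CPM with Ang(1-7), 44.4 ± 2.08 with PA/OA and 82.3 ± 8.13 in controls. Mrpl46, a mitochondrial ribosomal protein gene, Adh5, a class III alcohol dehydrogenase gene, Pmvk, of the mevalonate pathway, and the histone gene Hist1h3a followed at 0.25, 0.25, 0.25 and 0.26, against a median of 0.53. Each of these 5 had its highest mean in controls.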

How the data were processed

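Each of 3 deposited tables covers 2 groups and holds the authors' whole-number read counts per RefSeq transcript. Per the submitters' processing notes, bcl2fastq, HISAT2 (2.2.5) and HTSeq (0.11.2) were used, and a human build is named although the rows are mouse transcripts. The sources used here do not give the annotation release or the counting options, strand included. The authors' deposited log2 fold changes were used only where named, and the authors' deposited p-values were not used.

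Counts were summed per gene symbol and tested within each table with edgeR (version 4.0.16, R version 4.3.3): TMM scaling, the default expression filter and a quasi-likelihood F test, with Benjamini-Hochberg adjustment over all genes tested and a threshold of 0.05. A standard error is the log2 change divided by the square root of F. Levels per library used the 6674 transcripts common to the tables, with 24578113 to 28529393 counts per library. Log2 differences of S100a11 and S100a7a were taken within each table on log2 CPM with a prior count of 2, and their SE from the spread of 3 libraries per group. Samples were grouped by their labels, and transcript lengths were those of GENCODE M21.

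The test was tried on simulated counts with 200 changed genes. A first simulation with 2-fold changes missed the pass mark of 60% recovered that had been set, and the mark was then applied to 4-fold changes, which is an easier task. Recovery at 2-fold was 39.5% for Ang(1-7) against PA/OA (9119 genes), 67.5% for PA/OA against control (6213 genes) and 73% for Ang(1-7) against control (6134 genes). At 4-fold it was 98.5% (9127 genes), 100% and 100%.

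Named genes were the S100a11 and S100a7a pair, listed S100 and partner genes, up to 3 called genes of lowest p per other list, and the 5 most alike. Some results of other EF-hand genes and 1 of the 5 genes most like S100a11 are not reported here. The genes and lists were chosen with earlier results of these data known. Alternatives were DESeq2 (1.42.0), its size factors in edgeR, no filter, single transcripts, a replicate block and leaving out each library. Ang(1-7) 1 alone was added after the data were seen, and its fits assume that this sample varies like the other group.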

Additional observations from a re-analysis of the deposited data

How the results depend on the processing

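Of 70 recomputed log2 differences of S100a11 and S100a7a, 0 changed sign, 68 stayed within 1 replicate SD of the reported value and 2 moved by more, those of S100a11 with Ang(1-7) 1 alone (0.57 against PA/OA and 0.97 against control). For 6 of the 70, the replicate block, the value equals the reported one by construction and says nothing about stability. Leaving out each library in turn gave S100a11 differences of 0.79 to 1.11 between Ang(1-7) and PA/OA, 0.29 to 0.51 between PA/OA and control and 1.19 to 1.49 between Ang(1-7) and control. For S100a7a they were 0.06 to 0.38, −1.04 to −0.85 and −0.88 to −0.57. The number of genes called depended more on the setting. It was 3 in DESeq2 and 0 to 18 with a library left out between Ang(1-7) and PA/OA (18 without Ang(1-7) 1), 533 in DESeq2 and 99 to 397 with a library left out between PA/OA and control (134 without PA/OA 3, 147 without PA/OA 2, 200 without control 3 and 99 without control 1), and 259 in DESeq2, 229 with Ang(1-7) 1 alone and 4 to 624 with a library left out between Ang(1-7) and control (624 without Ang(1-7) 2, 32 without Ang(1-7) 1, 7 without Ang(1-7) 3 and 4 without any 1 control). Other S100 genes called numbered 0 to 1, 1 to 2 and 0 to 1 with a library left out in these 3 comparisons. DESeq2 called 1 in the last of them. Between Ang(1-7) and PA/OA the 1 was S100b, called only without Ang(1-7) 1, which left the libraries with nervous tissue transcripts. The causes were not tested.

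Same-numbered samples had deviations that correlated at −0.15 to 0.08 across genes, too weakly to treat equal numbers as pairs. With the replicate block 0, 303 and 10 genes were called in the 3 comparisons. As a hint from the data, 2, 6 and 3 of 6 samples correlated best with their own number.

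Some changes of genes that were not called turned sign. With a library left out between Ang(1-7) and PA/OA, the ranges were −0.82 to 0.39 for S100a3, −0.26 to 0.15 for S100a4, −0.41 to 0.061 for S100a6, −0.29 to 0.25 for S100a8, −1.40 to 0.36 for S100g, −0.0017 to 0.29 for Anxa1, −0.17 to 0.039 for Anxa2, −0.17 to 0.19 for Cdkn1a and −0.22 to 0.013 for Tlr4. Between PA/OA and control they were −0.090 to 0.020 for S100a1, −0.030 to 0.020 for Anxa1 and −0.078 to 0.29 for Ncl. Between Ang(1-7) and control they were −0.060 to 0.060 for S100a1, −0.018 to 0.26 for Anxa1, −0.20 to 0.44 for Cdkn1a and −0.12 to 0.079 for Tlr4. With Ang(1-7) 1 alone against PA/OA, the changes were 0.065 for S100a6, −0.084 for S100a8, 0.23 for S100a10, 0.062 for S100a16 and −0.016 for Anxa1, and against control −5.80 for S100b, −0.024 for Anxa1, −0.13 for Cdkn1a and 0.038 for Tlr4. With the replicate block S100a8 had −0.0075 between Ang(1-7) and PA/OA.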
